A study of Mus musculus with 9 samples.

Results

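The genes described here encode the machinery with which RNA polymerase I (Pol I) transcribes the ribosomal RNA genes (rDNA). The 10 genes were Ubtf, Taf1a, Taf1b, Taf1c, Taf1d, Tbp, Rrn3, Ttf1, Polr1a and Polr1b. The rule that chose them names their role in Pol I transcription and uses no measured value. It was set with earlier results of these data known, so the choice was not blind to them. Of these, 9 lie among the 22367 protein-coding genes that GENCODE M1 places on the mouse chromosomes of the mm9 build. Taf1a is not in that annotation. Its RefSeq promoter sequence matches only a contig of mm9 that is placed on no chromosome, and the 6 peak lists hold 0 peaks on unplaced contigs, so Taf1a could not be measured.

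In Pol I transcription, UBTF coats the ribosomal genes and keeps their chromatin open. The selectivity complex SL1, made of the TATA-binding protein and its Pol I specific partners, sits on the promoter, and RRN3 carries the polymerase to it. TTF1 binds the terminators that end the transcript. The genes of these proteins are themselves transcribed by RNA polymerase II, so a UBTF peak on them is a peak on an ordinary protein-coding gene and not on rDNA.

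UBTF was profiled by chromatin immunoprecipitation and sequencing (ChIP-seq) in primary pre-B cells sorted from bone marrow. The labels give the gate as B220 high with low IgM and IgD, while the study's methods give it so for wild type and premalignant cells and as B220 positive without IgM or IgD for malignant cells, so the sort may differ with stage. Mice were on a C57BL/6 background. The wild type cells lacked the transgene and came from mice of 4 to 6 weeks, the premalignant cells from Eµ-Myc heterozygotes of 4 to 6 weeks, and the malignant cells from Eµ-Myc heterozygotes with established lymphoma at 10 to 20 weeks. Eµ-Myc drives the MYC oncogene from an immunoglobulin enhancer in B cells. Malignant cells came from older mice than the others, and age and stage cannot be told apart. Wild type and premalignant mice were female and malignant mice of both sexes, so sex may also differ. Each stage had 2 UBTF libraries from separate experiments, and the 3 input samples were not used here.

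Each list gives summits, the highest point of a peak, with a score that ranks them. A start summit is a summit within 1 kb of an annotated start of a coding transcript, and its rank percentile runs from 0 for the weakest to 100 for the strongest peak of the same list. A gene with no start summit was set to 0. The lists held between 78113 and 575674 peaks. The narrowest peak measured 240 to 260 bp in 3 lists (the wild type pair and premalignant replicate 1) and 670 to 800 bp in the other 3, so peak width moves with the step from wild type to malignant, and its part in the results was not tested. Depth is unknown. Of 12 pre-B cell marker genes, 3 or 4 had a start summit in each library, against 0 of 4 erythroid and 0 of 4 hepatocyte markers in all 6 libraries, 0 or 1 of 7 T cell markers and 0 to 2 of 7 myeloid markers. Over all genes 21.3% to 46.2% had a start summit, and the pre-B share exceeded that of all genes only in premalignant replicate 1 (4 of 12, against 21.3%), so start summits do not serve as a check of cell type here. Spread and tests cover differences between these libraries only.

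Sequences are shown for 3 summits inside genes that recurred across lists, to let their repeats be read, and for the upstream regions of the 2 genes with a start summit in every list. They were read from mm9 on the strand of the gene. In the first, inside an intron of Rrn3 at chr16:13784369-13784569 on the plus strand, capitals mark each GGCAG.

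Rrn3 intron: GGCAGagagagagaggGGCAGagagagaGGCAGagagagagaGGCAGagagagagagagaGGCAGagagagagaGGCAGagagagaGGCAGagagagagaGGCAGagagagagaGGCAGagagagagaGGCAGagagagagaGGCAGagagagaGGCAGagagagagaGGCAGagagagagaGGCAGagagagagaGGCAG

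In the next, inside an intron of Ttf1 at chr2:28917558-28917758 on the plus strand, capitals mark each GTGA.

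Ttf1 intron: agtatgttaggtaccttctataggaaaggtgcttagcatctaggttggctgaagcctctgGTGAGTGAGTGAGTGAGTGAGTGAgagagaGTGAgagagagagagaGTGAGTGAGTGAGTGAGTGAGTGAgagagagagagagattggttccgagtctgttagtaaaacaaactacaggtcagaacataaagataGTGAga

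In an intron of Polr1b, at chr2:128935101-128935301 on the plus strand, capitals mark a run of 27 G.

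Polr1b intron: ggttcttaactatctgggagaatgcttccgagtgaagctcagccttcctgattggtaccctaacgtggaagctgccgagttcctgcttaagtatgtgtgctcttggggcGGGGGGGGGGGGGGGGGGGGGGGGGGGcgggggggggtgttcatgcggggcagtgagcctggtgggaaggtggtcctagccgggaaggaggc

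Upstream of Ubtf and Taf1d, 250 bases end at the base before the 5′-most annotated start. They lie at chr11:102181057-102181306 on the minus strand and chr9:15110408-15110657 on the plus strand. A RefSeq start of Ubtf lies further upstream, at 102182176. Capitals mark the searched motifs, CCGGAA in Ubtf and GGGCGG on the opposite strand in Taf1d.

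Ubtf upstream: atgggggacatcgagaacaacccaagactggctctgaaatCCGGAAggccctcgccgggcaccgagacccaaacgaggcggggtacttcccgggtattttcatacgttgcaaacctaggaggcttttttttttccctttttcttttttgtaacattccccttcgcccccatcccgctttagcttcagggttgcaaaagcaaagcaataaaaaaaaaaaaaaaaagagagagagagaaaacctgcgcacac

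Taf1d upstream: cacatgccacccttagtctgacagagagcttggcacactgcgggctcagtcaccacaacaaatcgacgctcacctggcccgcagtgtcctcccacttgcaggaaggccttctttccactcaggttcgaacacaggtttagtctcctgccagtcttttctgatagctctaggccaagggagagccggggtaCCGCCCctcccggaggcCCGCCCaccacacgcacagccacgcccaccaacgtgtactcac

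The Ubtf start carried a UBTF peak at a rank percentile of 90 or above in every library, and Taf1d carried a lower-ranked one. In malignant replicate 2, 22.6% of the genes with a start summit still lay above Ubtf. Counted over the 9 genes, a start summit was found in 4 genes in wild type replicate 1, 7 in wild type replicate 2, 2 in premalignant replicate 1, 4 in premalignant replicate 2, 7 in malignant replicate 1 and 2 in malignant replicate 2. Over all protein-coding genes the shares were 35.3%, 44%, 21.3%, 31.3%, 46.2% and 38.4% in the same order. Both libraries of a stage gave a start summit to 4 genes in wild type (Ubtf, Taf1d, Ttf1 and Tbp), where 29.2% of all genes had one. The count was 2 (Ubtf and Taf1d) at the premalignant stage, where 12.8% of all genes had one, and 2 (the same pair) at the malignant stage, where 26.6% had one. Start summits in all 6 libraries were present for 2 of the 9 genes and for 9.58% of all genes.

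**Figure D1:**
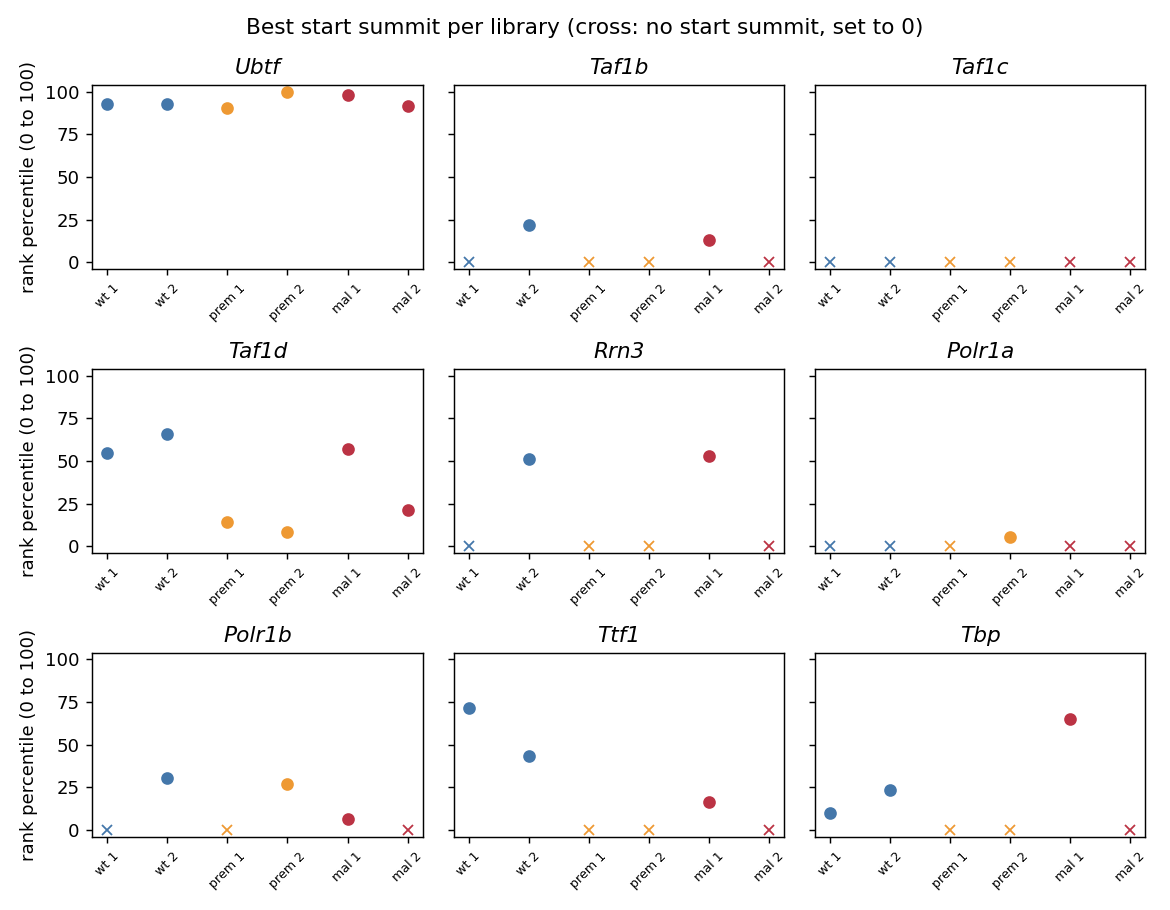
Rank percentile (0 to 100, vertical axis) of the best start summit of each gene in the 6 UBTF libraries (horizontal axis, wt wild type, prem premalignant, mal malignant), with crosses for libraries without a start summit. Ubtf lies above 90 in all 6 libraries, Taf1d has a value in all 6, and Taf1c has none.

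Ubtf encodes the protein that was immunoprecipitated. It spans 15.2 kb on the minus strand of chromosome 11, from 102165874 to 102181056, and has 9 annotated coding starts spread over 3067 bp. Its best start percentile was 92.6 and 93.0 in wild type, 90.2 and 99.7 in premalignant cells and 98.2 and 91.5 in malignant cells. Every library placed it at 90 or above, which 0.411% of all genes did, a threshold set after the values were seen. Ubtf has more starts to search than most genes (9 against a median of 1), and with the 5′-most start alone it gave 82.7 in wild type replicate 1 and 79.2 in malignant replicate 2, so that 4 of the 6 libraries placed it at 90 or above. With the best summit of each region it was also 4, with lists shortened to equal length 3, and among the best 20000 peaks of each list 1. The stage means were 92.8 ± 0.235, 94.9 ± 6.69 and 94.9 ± 4.72 (SD, n = 2). The ranges of the stages overlapped, and the two-sided exact permutation p was 1 for each of the 3 stage pairs. The overlap of wild type and premalignant cells did not hold under every setting. With lists shortened to equal length, premalignant cells (90.2 and 97.5) lay wholly above wild type (89.1 and 83.4). Among the best 20000 peaks they did so too (61.7 and 90.1 against 57.3 and 35.2).

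The Ubtf signal was a broad one. The region of the best summit, 4064 to 5017 bp wide, covered the 9 annotated starts in each library. The median region among genes with a start summit measured 1741.5 to 2164 bp. The 5′-most RefSeq start of Ubtf, at 102182176, lay upstream of the best summit's region in every library. Within that region lay 8 and 6 start summits in wild type, 9 and 4 in premalignant cells and 5 and 4 in malignant cells, where the median gene had 1. At least that many summits were found in 0.0253% to 1.98% of the genes with a start summit. Ubtf was searched around 9 starts, and only 1.14% of all genes have at least as many. More starts widen the stretch searched, and the part of this in the summit count was not tested. Among the genes with a start summit Ubtf stood 308th and 368th in wild type, 309th and 63rd in premalignant cells and 243rd and 1946th in malignant cells, of 4766 to 10323 genes.

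**Figure D2:**
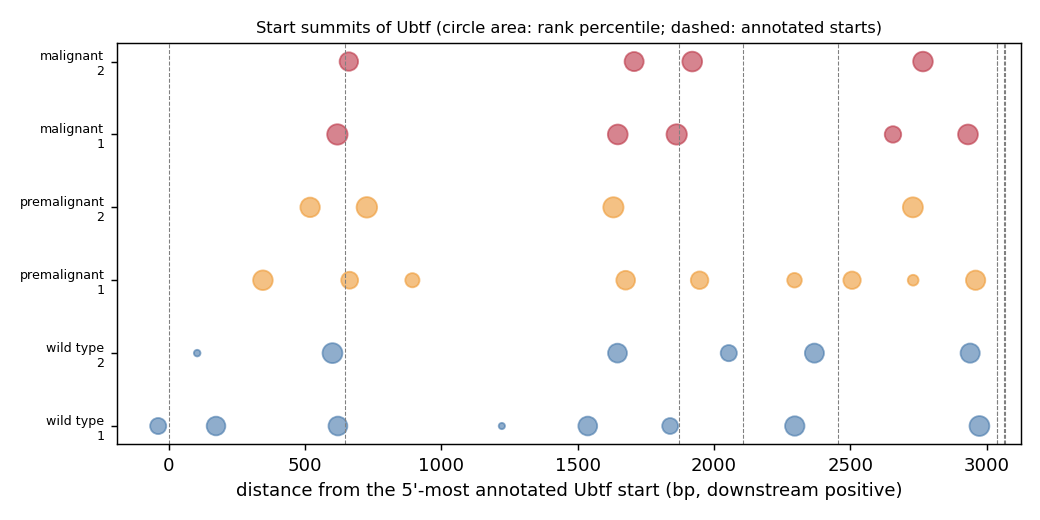
Start summits of Ubtf in each UBTF library (vertical axis) by distance in bp from the 5′-most annotated start (horizontal axis, downstream positive), with circle area giving the rank percentile and dashed lines the annotated starts. The 36 summits of the 6 libraries lie along the span of the annotated starts, and each library has between 4 and 9.

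The SL1 subunits did not share that pattern. Taf1d, an SL1 subunit gene of 10.8 kb on chromosome 9, gave percentiles of 54.8 and 65.7 in wild type, 14.2 and 8.36 in premalignant cells and 56.9 and 21.2 in malignant cells. The premalignant values lay below all those of the other stages, and the wild type and malignant ranges overlapped. The difference of means, premalignant minus wild type, was -48.9 percentile points (two-sided exact permutation p = 0.333, the smallest that 2 libraries against 2 can give). Malignant cells lay 27.7 points above premalignant cells, with an exact p of 0.333. At an FDR of at most 0.01, or with the peak region required to cover the start, premalignant replicate 2 has no Taf1d start peak (its summit lay at -412 bp, upstream of the start) and the order of the stages stays. With lists shortened to equal length, Taf1d gave 32.8 and 18.9 in wild type, 14.2 and 0 in premalignant cells and 0 in both malignant libraries, so the premalignant to malignant difference turned direction.

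Taf1b gave 21.6 in wild type replicate 2 and 13.4 in malignant replicate 1, and had no start summit elsewhere. Taf1c had none in any library. Tbp, whose protein also serves RNA polymerases II and III, gave 9.78 and 23.4 in wild type, none in premalignant cells, and 64.9 in malignant replicate 1 only. Wild type thus lay above premalignant for Tbp (exact permutation p = 0.333), while the malignant libraries spanned the values of both. Both premalignant values were 0, set for want of a start summit. The share of all genes separated in that way is not given here. With lists shortened to equal length no library had a Tbp start summit, and with the best summit of each region wild type replicate 2 had none, so the separation ended under both.

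Rrn3, which encodes the initiation factor that links polymerase to promoter, gave 51.3 in wild type replicate 2 and 53.1 in malignant replicate 1 and no start summit in the other 4 libraries. Ttf1, the termination factor gene, gave 71.4 and 43.2 in wild type, none in premalignant cells and 16.3 in malignant replicate 1. Its wild type values lay above those of premalignant and of malignant cells (exact permutation p = 0.333 for each). Both premalignant values and that of malignant replicate 2 were 0, set for want of a start summit. As for Tbp, the share of all genes separated with such values is not given here. With a start window of 2 kb, which takes in the intronic repeat, the Ttf1 stages overlapped (71.4 and 97.1, 54.5 and 84.5, 78.9 and 73.9). With lists shortened to equal length only wild type replicate 1 kept a start summit. With the best summit of each region wild type replicate 2 had none, so the separation ended under each of these settings. Among the polymerase subunits, Polr1a, the largest, had a start summit only in premalignant replicate 2, at 5.24. Polr1b, the next largest, gave 30.6 in wild type replicate 2, 26.8 in premalignant replicate 2 and 6.75 in malignant replicate 1. Of the 23 tests over genes and stage pairs, the smallest p was 0.333 and the smallest p adjusted by Benjamini-Hochberg was 1.

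For comparison with all genes, stages without overlap were counted only over genes with a start summit in all 4 libraries of a pair. Among the genes described here these were Ubtf and Taf1d. The separations of Ttf1 and Tbp given above rest on values set to 0 and are not in these counts. From wild type to premalignant, 0 of the 2 lay wholly higher and 1 wholly lower (Taf1d), against 11.1% and 20.5% of all 2414 genes so tested. From premalignant to malignant, 1 of the 2 lay wholly higher (Taf1d) and 0 wholly lower, against 29.5% and 3.08% of 2404 genes. From wild type to malignant it was 0 and 0, against 38.4% and 7.91% of 4033 genes.

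The irreproducible discovery rate (IDR) asks, from the ranks of paired peaks, which peaks the replicates share beyond noise. At an IDR under 0.05, Ubtf was the 1 gene of the 9 with a reproducible start peak in wild type, and again in malignant cells, with lowest IDRs of 0.00163 and 0.0161. In premalignant cells it was 0 of 9, and the lowest IDR at Ubtf was 0.218. Over all genes 5.27% passed for wild type, 0.201% for the premalignant pair and 8.34% for the malignant pair.

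Summits in or within 1 kb of the 9 genes, joined across libraries where they lay up to 1 kb apart, fell into 34 loci. Of these, 4 were present in all 6 libraries (the starts of Ubtf and Taf1d and an intron each of Rrn3 and Ttf1) and 13 in a single library. Within gene bodies the strongest signal was in Rrn3. The intronic array printed above held a summit in every library, within 48 bp of each other and 3677 bp downstream of the start. Its percentiles were 99.4 and 99.8 in wild type, 98.02 and 99.9 in premalignant cells and 99.6 and 99.8 in malignant cells, corresponding to places 709, 361, 1548, 826, 1093 and 1070 in the lists. All 6 values lay at 98 or above, as they did for body summits of 1.34% of all genes, a threshold set after the values were seen. The lowest IDR of the array was 1.77e-07 for wild type, 0.00959 for the premalignant pair and 0.000909 for the malignant pair.

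The array is made of purines. Of the 201 bases around the median summit 92.5% are A or G, and the GGCAG unit occurs 15 times. None of its 24-base words is unique in mm9, and the median word occurs 128 times, so reads there could be placed at other copies. Summits with at least 90% purine or pyrimidine made up 6.9% to 20.6% of the best 1000 peaks of a list, and 1.28% to 4.49% of all peaks.

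**Figure D3:**
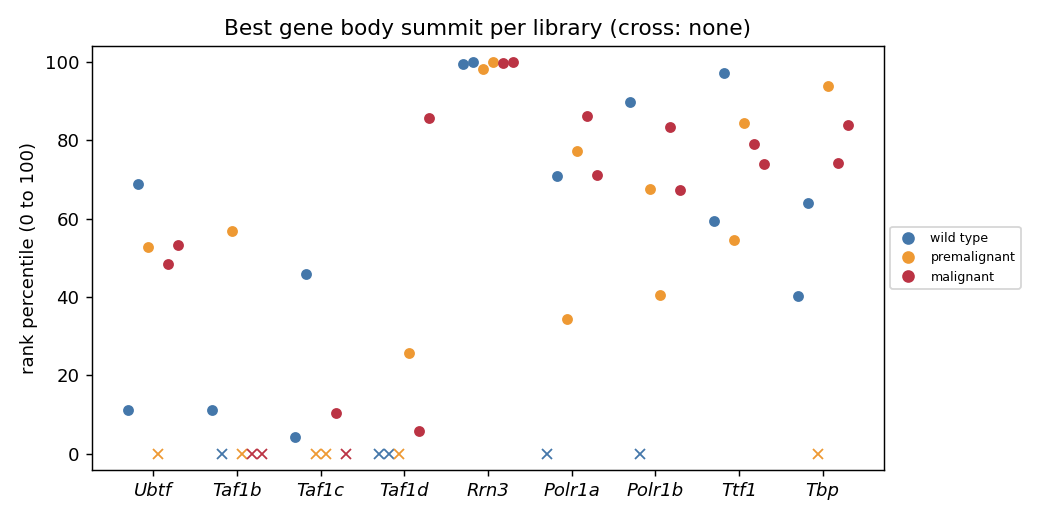
Rank percentile (0 to 100, vertical axis) of the best summit inside each gene and more than 1 kb from its starts (horizontal axis, gene), one point per UBTF library coloured by stage, with crosses for libraries without one. Rrn3 lies at 98 or above in all 6 libraries, and Ttf1 has a body summit in all 6 at lower percentiles.

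Body summits in all 6 libraries were found for Rrn3 and Ttf1, 2 of the 9 genes, and for 22% of all genes. The Ttf1 summits lay within 22 bp of each other on the GTGA repeat, at 59.3 and 97.1 in wild type, 54.5 and 84.5 in premalignant cells and 78.9 and 73.9 in malignant cells. The stages overlapped. The Polr1b summits at the G run were present in 5 of 6 libraries, at 40.4 to 89.6, and were missing in wild type replicate 2. Polr1a had a cluster of 22 summits in 5 of 6 libraries in an intron. In the 201 bases around their median position no 24-base word is unique in mm9 and the median word occurs 230 times. Tbp had summits near its 3′ end in 5 of 6 libraries, within 1 kb of the start of the neighbouring gene Pdcd2, at 40.3 to 93.8. Body summits of Ubtf were found in 5 libraries (11.1 to 68.7), those of Taf1c in 3 (4.24 to 45.8) and those of Taf1b in 2 (11.1 and 56.9). Taf1d had summits at its 3′ end in premalignant replicate 2 and malignant replicate 2 only, where small nucleolar RNA genes such as SNORA8 and SNORA32 start and where only 10.7% of the 24-base words are unique.

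Over 279 kb of gene, the 9 genes held 0.251 and 0.537 body summits per 10 kb in wild type, 0.215 and 0.860 in premalignant cells and 0.681 and 0.609 in malignant cells. All genes together held 0.334, 0.536, 0.212, 1.35, 0.667 and 1.42 in the same order. In the longest lists, those of replicate 2 from premalignant and from malignant mice, the 9 genes held fewer body summits per 10 kb than all genes did.

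By median, the starts of the 9 genes were near the typical gene in GC content but higher in CpG. The median GC content within 500 bp of the 5′-most start was 56.1%, against 54.7% over all genes. The median ratio of observed to expected CpG was 0.773 against 0.549. Taf1b (0.496) lay below that of all genes and Polr1b (0.573) near it, while the rest ranged from 0.677 to 0.875. The difference was not tested. The 250 bases upstream were searched on both strands for motifs. CACGTG, the E-box bound by MYC, was found in 1 of the 9 (Rrn3) and in 6.52% of all promoters. CCAAT was found in 3 and 35%, GGGCGG in 4 and 39.6%, CCGGAA in 5 and 13.9%, and TATAAA in 0 and 12.3%.

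Other genes of Pol I transcription were read from a list of 11 further subunits and 14 regulators. Start summits in all 6 libraries were present in 0 of the 11 subunits and 4 of the 14 regulators, Kdm2a, Kdm2b, Top1 and Ctcf. By mean percentile the 3 highest were Ctcf (84.2), which encodes a chromatin insulator protein, Kdm2b (78.2), a histone demethylase gene, and Top1 (77.6), which encodes a topoisomerase. The 3 lowest were Polr1e and Polr2k, with no start summit in any library, and Nolc1 (1.305), which encodes a nucleolar phosphoprotein. In malignant replicate 2 the Ctcf percentile was 93.0 and that of Ubtf 91.5, and in the other 5 libraries Ubtf lay above Ctcf. In the comparison lists, start summits in all 6 libraries were found in 0 of 7 subunits specific to RNA polymerase II and 3 of 26 genes of the RNA polymerase III machinery. The share over all genes was 9.58%, and differences between these short lists were not tested.

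The genes whose 6 percentiles lay nearest to those of Ubtf, by Euclidean distance over the 6 libraries, were Rasa2 (6.39), Hivep2 (6.73), Ppp1cc (6.77), Pik3ca (6.87) and Dut (6.99).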

How the data were processed

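As the paper describes, 50-bp paired reads were mapped by the authors with bowtie2 to mm9 plus a copy of the rDNA, duplicates were removed with Picard (1.110 in the submitters' processing notes, which also name CASAVA 1.8.2) and peaks were called per library with SPP. The deposited score is in the peak caller's own units and was used only to rank peaks within a list, with tied scores sharing a mean rank. Each peak's FDR is the deposited q-value. Depth is unknown. Percentiles, summits at starts and in bodies, and gene positions used GENCODE M1 on NCBIM37. Peaks of replicates were paired at an overlap of 1 bp for IDR, and of 4 starting points the fit with the highest likelihood was kept. Several starting points were adopted after fits from 1 point had ended at lower likelihoods in 2 stages. Assignment and IDR were tested on simulated data. Stages were compared by two-sided exact permutation tests. Tools were Python 3.11.15, numpy 2.4.6, pandas 2.3.3, scipy 1.17.1, pysam 0.24.0, numba 0.67.0 and matplotlib 3.10.9. The members and lists were chosen with earlier results of these data known. All 10 members were named, with the 3 highest and 3 lowest other Pol I genes and the 5 genes most like Ubtf. Alternatives were other start windows and rules, stricter or shortened lists, and leaving out each library. RefSeq promoter sequences (GRCm38.p6) were matched to mm9 by sequence.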

Additional observations from a re-analysis of the deposited data

How the results depend on the processing

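Of 513 alternative values, 450 kept to the main value within 1.5 times (counts) or the spread between replicates, and 63 did not. Except where a value or the construction below shows it, the cause was not tested. With a start window of 2 kb, the median start percentile was 2.62 in premalignant and 26.5 in malignant cells, and 4 genes had a start summit in both malignant libraries. With the peak region over the start, and with an FDR of at most 0.01, 1 gene had one in both premalignant libraries. Non-overlap was again counted only over genes with a start summit in all 4 libraries of a pair. Then 0 genes lay wholly lower from wild type to premalignant and 0 wholly higher from premalignant to malignant. Under these settings Taf1d had none in premalignant replicate 2 and so was not counted. With that library set to 0, the order of its stages stayed. With lists shortened to the shortest, the genes with a start summit in both libraries were 2, 1 and 1 in wild type, premalignant and malignant cells. With the best 20000 peaks they were 1, 1 and 0. The same count gave, under both, 1 gene (Ubtf) wholly higher and 0 wholly lower from wild type to premalignant. From premalignant to malignant it gave 0 wholly higher. Taf1d, without a start summit in premalignant replicate 2, again left these comparisons. The best summit of each region left 2 genes in both wild type libraries. Body summits per 10 kb in malignant cells were 0.107 with shortened lists and 0.448 with the best summit of each region. Reproducible start peaks in malignant cells were 0 at an IDR under 0.01 and 0 with shortened lists.

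Leaving out each library in turn, the genes with a start summit in the libraries kept ranged from 4 to 7 in wild type, 2 to 4 in premalignant and 2 to 7 in malignant cells, and the high ends came from leaving out replicate 1 of the wild type, replicate 1 of the premalignant and replicate 2 of the malignant stage. Non-overlap was counted over genes with a start summit in every library kept of a pair. Genes wholly higher ranged from 0 to 1 (wild type to premalignant), 1 to 2 (premalignant to malignant) and 0 to 2 (wild type to malignant). Genes wholly lower ranged from 1 to 2, 0 to 1 and 0 to 2 for the same pairs. Higher counts came without premalignant replicate 1 (0 to 1, both pairs), premalignant replicate 2 (1 to 2, both pairs), wild type replicate 1 and either malignant library (wild type to malignant). Same-numbered libraries share only a number, and their deviations correlated at 0.0571 to 0.246 over genes. With the replicate block, where both same-numbered differences had to point 1 way, the counts were 0 higher and 1 lower, 1 higher and 0 lower, and 0 and 0 for those 3 stage pairs, the same as without it. RefSeq starts, an alternative chosen after seeing the data, changed no count by over 1.5 times. The mean Ubtf percentiles in wild type, premalignant and malignant cells were 86.2, 93.8 and 66.3 with shortened lists and 46.2, 75.9 and 37.6 among the best 20000 peaks, where malignant replicate 2, with Ubtf at place 47622, had none. Taf1d, Ttf1 and Tbp had no start summit among the best 20000 peaks of any library.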
